A study of Mus musculus with 6 samples.

Results

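The genes described here are the MHC class II antigen presentation genes of the mouse ovary: H2-Ab1, H2-Aa, H2-Eb1, Cd74, Ciita, H2-DMa and H2-DMb1. They are 7 of the 51826 genes in the count table and were found by exact match of the gene name. The set was chosen by the count of H2-Ab1, which steps down from the first group of ovaries to the second and again to the third, so the group differences of all 7 are given below as descriptions and carry no p-values. All 7 passed the filter on low counts, which left 19027 genes for testing.

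The study measured polyadenylated RNA of whole ovaries of ICR mice, an outbred stock, in 6 libraries. The 2 libraries labelled COH carry no model or drug label. COH is not spelled out in the labels. The 2 libraries labelled OHSS come from mice in which ovarian hyperstimulation syndrome was modelled, a complication of ovarian stimulation in which enlarged ovaries and leaky vessels shift fluid out of the blood. The 2 libraries labelled OHSS+Drug come from the same model given Nintedanib (bibf1120), an inhibitor of the receptor tyrosine kinases for VEGF, FGF and PDGF, and are called the nintedanib ovaries here. The sources used here give no ages, hormones, doses or times. The labels do not say whether the 2 libraries of a group came from different mice, so the spread between them may be technical.

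MHC class II molecules sit on the surface of antigen-presenting cells (dendritic cells, B cells and macrophages) and show peptides to CD4 T cells. In the mouse, H2-Aa and H2-Ab1 encode the alpha and beta chains of the A molecule, and H2-Ea and H2-Eb1 those of the E molecule. Cd74 is the invariant chain, which blocks the peptide groove of a new class II molecule and escorts it to the endosome. There the DM molecule, made of an H2-DMa chain and an H2-DMb chain, exchanges the last fragment of Cd74 for peptide. Ciita is the co-activator that switches the family on: it binds no DNA itself and docks on factors held at the X box (the RFX complex and CREB) and the Y box (NF-Y) of class II promoters. Interferon gamma is the classical inducer of Ciita in cells that are not professional antigen-presenting cells.

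The promoter letters are shown because X and Y boxes are where the factors that Ciita docks on bind. RefSeq windows of GRCm38.p6, running from 250 bases before to 50 bases after a gene's start, were searched on both strands for ACNGATG, the end of an X box, and for GATTGG, a Y box. The table has entries for H2-Aa, H2-Eb1, H2-DMa and H2-DMb1, and none matched for H2-Ab1, Cd74 and Ciita. The stretches below, 5′ to 3′ on the gene's strand, have the matches in capitals (CCAATC is the Y box read on the other strand). H2-DMb2 stands beside H2-DMb1 because the 2 genes are near copies. The stretches are chr17:34287837-34287902 (minus strand) for H2-Aa, chr17:34305749-34305842 (plus strand) for H2-Eb1, chr17:34153070-34153164 (plus strand) for H2-DMb1 and chr17:34145099-34145193 (plus strand) for H2-DMb2.
H2-Aa: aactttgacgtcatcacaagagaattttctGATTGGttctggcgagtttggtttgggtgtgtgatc
H2-Eb1: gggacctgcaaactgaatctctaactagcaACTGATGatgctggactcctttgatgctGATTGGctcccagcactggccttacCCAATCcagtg
H2-DMb1: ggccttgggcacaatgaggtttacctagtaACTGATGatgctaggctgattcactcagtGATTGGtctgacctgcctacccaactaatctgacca
H2-DMb2: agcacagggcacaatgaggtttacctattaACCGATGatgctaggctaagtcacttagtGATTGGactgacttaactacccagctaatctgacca
H2-Eb1 holds an X box end and, 28 bases further on, a Y box, which start at positions -88 and -60 from the gene's start. In H2-DMb1 the same pair is 29 bases apart, at -91 and -62. H2-DMb2 has the same spacing of 29. The H2-Aa window has a Y box at -49, and its one X box match lies at -232 on the other strand. Of the 2 H2-DMa windows, 1 holds a Y box and neither holds an X box end. Of all 32851 promoters of this length, 9.85% hold the X box letters on either strand and 16.1% the Y box letters. An X box end followed by a Y box within 50 bases on the gene's strand is in 26 of them (0.0791%). These 26 include H2-Eb1, H2-DMb1, H2-DMb2 and H2-Eb2. Only the exact letters were searched, so a window without a match may still hold a box spelled otherwise. These matches describe letters in a window and are not measured binding sites.

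Library totals ran from 28498435 to 34716751 counts. Levels are given in CPM, the count relative to the library total after TMM scaling, a correction for library composition. Ovarian genes marked the tissue in every library: Cyp11a1, the first enzyme of steroid synthesis, ran from 8763 to 12566 CPM, and Inha and Foxl2 were also present throughout. Differences between groups are log2 fold changes from an edgeR quasi-likelihood fit of all 6 libraries. Each SE was worked back from the test: the absolute log2 fold change divided by the square root of its F statistic.

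The chains of the A molecule stood highest in COH ovaries, lower in OHSS ovaries and lowest in nintedanib ovaries. H2-Ab1 (ENSMUSG00000073421, chromosome 17) was at 47.2 and 52.3 CPM in COH, 26.7 and 28.9 in OHSS, and 13.8 and 11.1 in nintedanib ovaries. No library of one group reached into the range of another. The group means were 49.8 ± 3.64, 27.8 ± 1.59 and 12.5 ± 1.89 CPM (SD, n = 2 each). H2-Ab1 was 1.79-fold lower in OHSS than in COH (log2 fold change -0.84, SE 0.153) and 2.23-fold lower in nintedanib than in OHSS ovaries (-1.16, SE 0.155). From COH to nintedanib ovaries the difference was 3.99-fold (-1.998, SE 0.158). This pattern is the one the genes were chosen for. In whole ovaries, fewer class II cells and less class II RNA per cell cannot be told apart.

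H2-Aa (ENSMUSG00000036594, chromosome 17), the partner of H2-Ab1 in the A molecule, followed the same order. It was at 37.2 and 39.0 CPM in COH, 22.2 and 27.4 in OHSS, and 11.2 and 13.3 in nintedanib ovaries, again with no overlap between groups. The group means were 38.1 ± 1.28, 24.8 ± 3.72 and 12.3 ± 1.46 CPM (SD, n = 2). Its log2 fold changes were -0.62 (SE 0.163) for OHSS against COH, -1.02 (SE 0.166) for nintedanib against OHSS and -1.63 (SE 0.168) for nintedanib against COH. Counts of H2-Aa per count of H2-Ab1 stayed between 0.745 and 0.949 in 5 libraries and were 1.196 in the second nintedanib library. Whether the 2 chains differ in their changes was not tested.

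**Figure D1:**
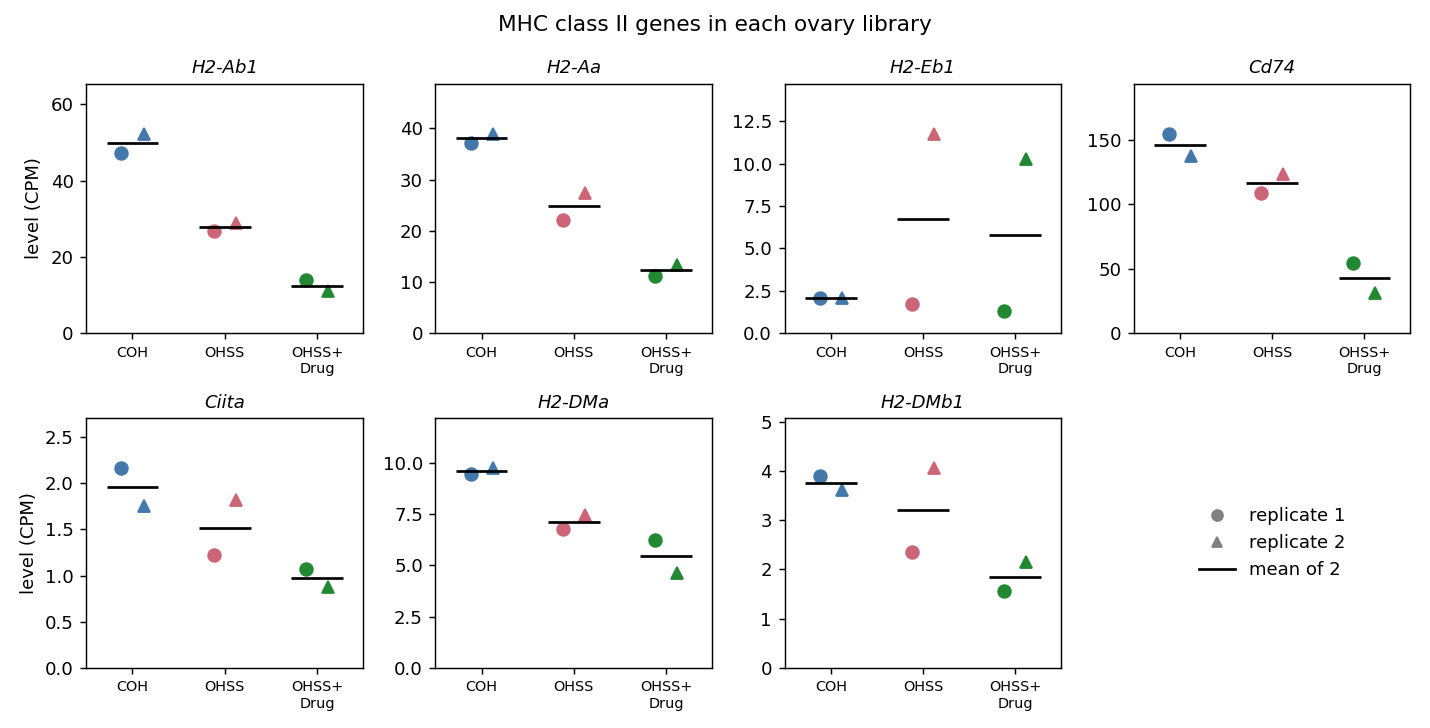
Level (CPM, linear axis from 0) of each of the 7 class II genes in the 6 ovary libraries. Circles are first replicates, triangles second replicates and lines the means of 2. H2-Ab1, H2-Aa, Cd74 and H2-DMa step down without overlap, while H2-Eb1 is high in 1 OHSS and 1 nintedanib library.

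Cd74 (ENSMUSG00000024610, chromosome 18), the invariant chain, was the most abundant of the 7 genes. It was at 155.2 and 137.4 CPM in COH, 108.7 and 124.0 in OHSS, and 54.7 and 31.4 in nintedanib ovaries. The groups did not overlap, but OHSS lay close under COH, while both nintedanib libraries were far below. The means were 146.3 ± 12.6, 116.4 ± 10.8 and 43.0 ± 16.5 CPM (SD, n = 2). The OHSS to COH difference was -0.33 on the log2 scale (SE 0.267), and that of nintedanib to OHSS was -1.44 (SE 0.273), a 2.71-fold lower level. Nintedanib against COH gave -1.77 (SE 0.276). Cd74 thus had its larger step between the OHSS groups, whereas the steps of H2-Ab1, -0.84 and -1.16, were nearer in size. Whether the steps of the 2 genes differ was not tested.

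Per length, Cd74 also led. Divided by the exon length in GENCODE M21, its COH mean was 87.1 CPM per kb, against 19.4 for H2-Ab1, 10.03 for H2-Aa, 2.78 for H2-DMa, 2.23 for H2-DMb1, 1.07 for H2-Eb1 and 0.205 for Ciita. In nintedanib ovaries the means were 25.6 CPM per kb for Cd74, 4.85 for H2-Ab1 and 3.23 for H2-Aa. The peptide-loading chain H2-DMa stood at 1.58 CPM per kb there. H2-DMa stood closer to H2-Ab1 in the nintedanib ovaries than in the others. Counts of H2-DMa per count of H2-Ab1 were 0.200 and 0.186 for COH, 0.254 and 0.258 for OHSS, and 0.452 and 0.417 in nintedanib ovaries.

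The E beta chain did not follow the groups. H2-Eb1 (ENSMUSG00000060586, chromosome 17) was at 2.08 and 2.07 CPM in COH, 1.73 and 11.8 in OHSS, and 1.32 and 10.3 in nintedanib ovaries. The second OHSS and the second nintedanib library were high, and the other 4 lay close together. The means were 2.07 ± 0.00935, 6.75 ± 7.10 and 5.80 ± 6.33 CPM (SD, n = 2), so the spread within the last 2 groups exceeded their means. The fitted log2 fold changes were 1.70 (SE 1.197), -0.22 (SE 1.15) and 1.49 (SE 1.19) in the order of comparisons above. Without the second OHSS library, OHSS against COH was -0.26 and nintedanib against OHSS 1.74. Leaving out the first nintedanib library gave 0.60 for nintedanib against OHSS, and leaving out the second gave -2.35 there and -0.65 against COH. No direction can be read for this gene.

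The levels of the A and E beta chains therefore had no fixed ratio. Counts of H2-Eb1 per count of H2-Ab1 were 0.0440 and 0.0395 for COH, 0.0651 and 0.407 for OHSS, and 0.0955 and 0.924 in nintedanib ovaries. The E alpha chain is listed in the table as H2-Ea-ps, a name that reflects its being a pseudogene in some strains and a working gene in others. H2-Ea-ps had 29 and 24 counts in COH, 14 and 294 in OHSS, and 11 and 0 in nintedanib ovaries. It was high in the second OHSS library together with H2-Eb1, but in the second nintedanib library, where H2-Eb1 had 330 counts, it had none. A count of 0 allows up to 0.187 CPM in that library, taking 3 read pairs (6 counts) as the limit and covering counting error only. H2-Ea-ps did not pass the test in any comparison, with edgeR adjusted p between 0.657 and 0.705. Class II genes are highly polymorphic, ICR mice are outbred and the reads were mapped to one reference, and the alleles these mice carry were not analysed here.

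**Figure D2:**
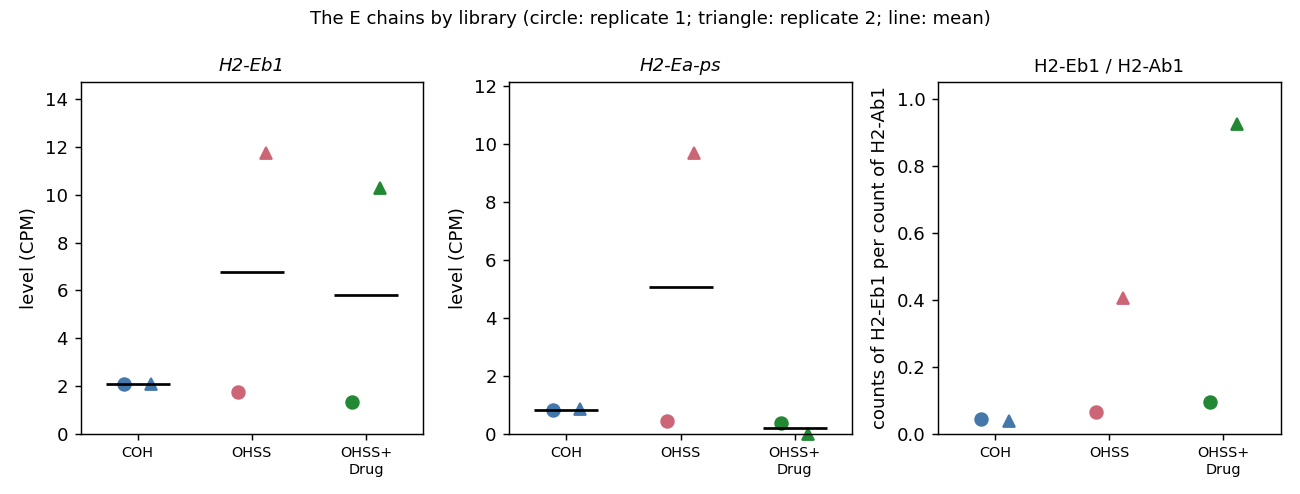
H2-Eb1 and H2-Ea-ps (CPM) and counts of H2-Eb1 per count of H2-Ab1 in the 6 libraries, on linear axes from 0. Circles are first and triangles second replicates, and lines are means of 2. H2-Eb1 is high in both second replicates of the OHSS groups, and H2-Ea-ps in only the OHSS one of them.

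The DM chains edit the peptides that class II molecules carry. H2-DMa (ENSMUSG00000037649, chromosome 17) was at 9.44 and 9.73 CPM in COH, 6.78 and 7.45 in OHSS, and 6.24 and 4.64 in nintedanib ovaries. The groups did not overlap, though the first nintedanib library lay close to the first OHSS library. The means were 9.58 ± 0.208, 7.12 ± 0.476 and 5.44 ± 1.13 CPM (SD, n = 2), with log2 fold changes of -0.43 (SE 0.216), -0.39 (SE 0.218) and -0.82 (SE 0.218).

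H2-DMb1 (ENSMUSG00000079547, chromosome 17) was at 3.90 and 3.61 CPM in COH, 2.35 and 4.06 in OHSS, and 1.56 and 2.15 in nintedanib ovaries. The second OHSS library lay above both COH libraries, and only the nintedanib libraries stood below all others. The means were 3.75 ± 0.211, 3.20 ± 1.21 and 1.85 ± 0.416 CPM (SD, n = 2), and the log2 fold changes -0.23 (SE 0.365), -0.78 (SE 0.372) and -1.02 (SE 0.372). Without the first OHSS library the first of these was 0.12, and without the second it was -0.69. An H2-DMb1 transcript shares 1035 of 1081 aligned bases (95.74%) with H2-DMb2, so how reads were split between the copies is uncertain. H2-DMb2 was at 4.18 and 3.99 CPM in COH, 3.05 and 1.71 in OHSS, and 1.80 and 1.15 in nintedanib ovaries, the reverse order within OHSS. The sum of both copies, taken after their values were seen, was 8.09 and 7.60 CPM in COH, 5.40 and 5.77 in OHSS, and 3.36 and 3.30 in nintedanib ovaries. The summed beta chains did not overlap between groups.

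H2-Oa and H2-Ob, the chains of the DO molecule that restrains DM, were near the limit of the depth. H2-Oa ran from 0.139 to 0.945 CPM and H2-Ob from 0.125 to 1.91 CPM. Neither these nor H2-DMb2 passed the test, with edgeR adjusted p between 0.491 and 0.98. H2-Eb2, a second E beta gene outside the naming rule, had at most 8 counts in a library and was not tested.

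Ciita (ENSMUSG00000022504, chromosome 16), the co-activator, was the lowest of the 7 genes. It was at 2.16 and 1.75 CPM in COH, 1.22 and 1.81 in OHSS, and 1.07 and 0.872 in nintedanib ovaries, from 77, 50, 38, 55, 31 and 28 counts. COH and OHSS overlapped, and both nintedanib libraries were below all others. The means were 1.96 ± 0.292, 1.52 ± 0.419 and 0.973 ± 0.143 CPM (SD, n = 2). Its log2 fold changes were -0.37 (SE 0.364), -0.64 (SE 0.372) and -1.01 (SE 0.371). At this depth the first 2 are of the size of their errors or less than double them.

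The regulators listed are the promoter factors that Ciita docks on and Cd83, which protects class II molecules from turnover. Of 8 with a row, none passed the test in any comparison by edgeR, DESeq2 or limma voom, and none had an unadjusted edgeR p under 0.05. Nfya and Nfyc, subunits of the Y box factor NF-Y, ran from 52.5 to 65.1 CPM and from 49.6 to 58.1 CPM. Rfx5, the DNA-binding subunit of the X box complex, was at 31.3 and 33.7 CPM in COH, 35.4 and 38.6 in OHSS, and 12.6 and 30.7 in nintedanib ovaries. Both nintedanib libraries were below all others, the first far below and the second just under the lowest COH library. The edgeR adjusted p for Rfx5 in nintedanib ovaries was 0.714 against OHSS and 0.655 against COH. Creb1 varied between libraries of every group, from 4.10 to 61.6 CPM, as did Cd83, named outside the rule, from 7.41 to 57.5 CPM.

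Set side by side, 6 of the 7 genes had lower means in OHSS than in COH, all 7 in nintedanib than in OHSS ovaries, and 6 in nintedanib than in COH ovaries. Over the 19027 genes tested these shares were 50.4%, 48.5% and 50.1%. The median log2 fold changes of the 7 genes were -0.37, -0.78 and -1.02, where those of all genes were -0.0030, 0.010 and -0.00099. The lower group did not overlap the higher one for 4, 6 and 6 of the 7 genes, and for 22.9%, 16.9% and 22.7% of all genes tested. The 4 genes H2-Ab1, H2-Aa, Cd74 and H2-DMa stepped down without overlap at both steps, which 314 genes (1.65%) did. The contrasts chose the set, so nothing is read from these counts. Which OHSS library was used mattered for the medians: without the first, the OHSS to COH median was -0.22, and without the second it was -0.69. Without the second, the nintedanib to OHSS median was -0.34. Leaving out the first COH library gave an OHSS to COH median of -0.24.

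**Figure D3:**
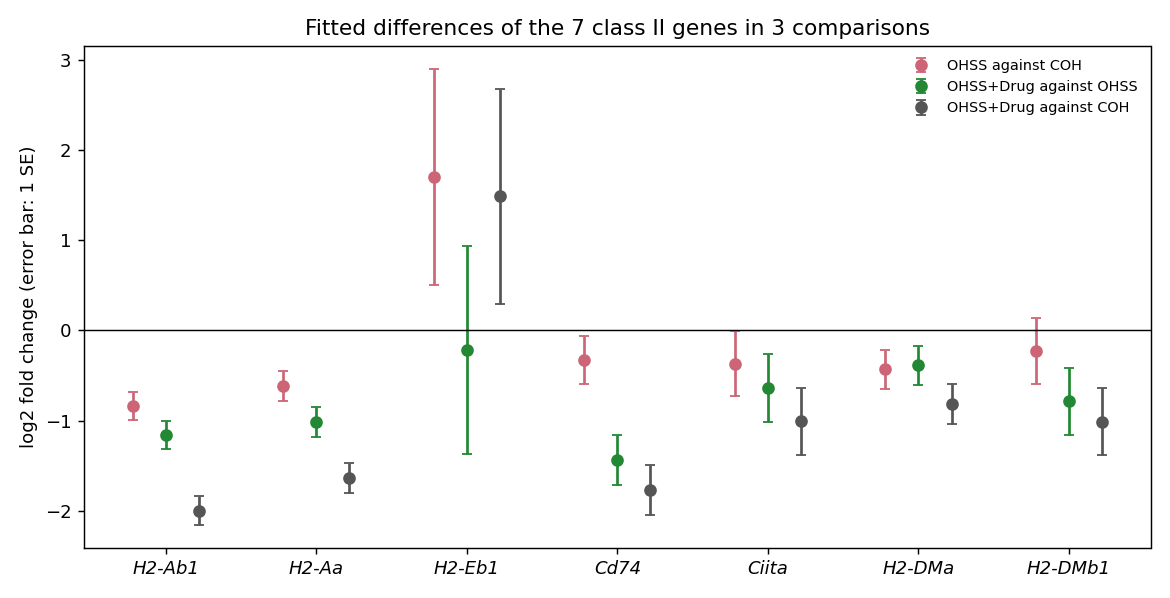
Log2 fold changes of the 7 class II genes with 1 SE, fitted over 6 libraries, for OHSS against COH, OHSS+Drug against OHSS and OHSS+Drug against COH. Apart from H2-Eb1, the genes lie below 0 in all 3 comparisons. H2-Eb1 has errors above 1.

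The summed level of the 7 genes was 257.1 and 245.8 CPM in COH, 169.6 and 205.5 in OHSS, and 89.9 and 73.7 in nintedanib ovaries. Cd74 made up the largest share of this sum in every library, so it mostly shows Cd74 and the A chains. Without H2-Eb1 the sum was 63.5 CPM in the second nintedanib library and 88.6 in the first.

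The wider pathway was read from 6 lists with 47 genes, of which 44 had a row and 41 were tested. None passed edgeR's test (adjusted p below 0.05) in any of the 3 comparisons, where 2 of all 19027 genes did for OHSS against COH (0.0105%), 1 for nintedanib against OHSS (0.00526%) and 5 for nintedanib against COH (0.0263%). At an unadjusted p under 0.05, 5 pathway genes were higher and 1 lower in the first comparison, 2 were lower in the second, and 7 were higher and 2 lower in the third. For all genes tested those shares were 8.82%, 7.42% and 9.70%. limma voom called none of the pathway genes. DESeq2 called 1, 0 and 5 of them, against 1.47%, 0.888% and 2.20% of the genes to which it gave an adjusted p.

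The genes of interferon gamma signalling, the inducer of Ciita, did not share the order of the class II genes. Ifng itself, named outside the rule, had 0 counts in all 6 libraries, which allows up to 0.210 CPM in the library of the smallest scaled total on the limit of 6 counts. Jak1 ran from 347.4 to 413.3 CPM, and the receptor chains Ifngr1 and Ifngr2 from 51.4 to 69.9 and from 100.5 to 125.1 CPM.

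Irf1, an interferon-induced factor that acts on a Ciita promoter, was at 19.4 and 17.5 CPM in COH, 43.7 and 44.7 in OHSS, and 37.4 and 57.3 in nintedanib ovaries. It was higher than COH in all 4 libraries of the OHSS model. The log2 fold changes against COH were 1.26 (SE 0.220) in OHSS and 1.36 (SE 0.221) in nintedanib ovaries, with edgeR adjusted p = 0.425 and 0.319. DESeq2 called both, at adjusted p = 0.0005 and 8.4e-05. The call on Irf1 therefore depends on the tool. H2-Ab1 and H2-Aa were below both COH libraries in the same 4 libraries, and Ciita in 3 of them.

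The class II genes lie among other immune genes on chromosome 17, in the order H2-Oa, Brd2, H2-DMa, H2-DMb2, H2-DMb1, Psmb9, Tap1, Psmb8, Tap2, H2-Ob, H2-Ab1, H2-Aa, H2-Eb1, H2-Eb2, H2-Ea-ps and Btnl2. Psmb8, Tap1 and Tap2 serve class I presentation: the first is a subunit of the immunoproteasome, and the others form the peptide transporter. They sit between the DM chains and H2-Ab1, and their means were higher, not lower, in the OHSS groups. Tap1 and Tap2 were above both COH libraries in every OHSS and nintedanib library. Psmb8 was not: it was at 19.4 and 17.3 CPM in COH, 51.7 and 16.2 in OHSS, and 44.4 and 74.6 in nintedanib ovaries. Psmb9, which sits there too, was at 12.9 and 11.3, 16.3 and 8.18, and 14.2 and 19.03 CPM. H2-Ob, in the same interval, had a log2 fold change of -1.39 (SE 1.03) for nintedanib against COH. Tap2 was at 66.7 and 69.1 CPM in COH, 109.3 and 85.4 in OHSS, and 102.9 and 116.8 in nintedanib ovaries. Its log2 fold change was 0.52 (SE 0.151, edgeR adjusted p = 0.533) in OHSS and 0.69 (SE 0.151, edgeR adjusted p = 0.44) in nintedanib ovaries against COH. DESeq2 called the latter (adjusted p = 0.027).

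Psmb8 and Tap1 had log2 fold changes of 1.70 (SE 0.571) and 1.34 (SE 0.461) for nintedanib against COH, each with edgeR adjusted p = 0.494. Brd2, a general transcription regulator among the class II genes, ran from 243.7 to 285.2 CPM. Btnl2, a butyrophilin-like inhibitor of T cell activation on the far side of the E genes, had the order of H2-Ab1. It was at 5.79 and 4.17 CPM in COH, 3.05 and 2.47 in OHSS, and 1.59 and 1.28 in nintedanib ovaries. For nintedanib against COH the log2 fold change was -1.79 (SE 0.318, edgeR adjusted p = 0.358), which DESeq2 called (adjusted p = 0.00098). Btnl2 is named outside the rule, after its values were seen, as is Notch4 further along, whose log2 fold change was 1.02 (SE 0.199, edgeR adjusted p = 0.384, DESeq2 adjusted p = 0.0043). Neighbours in this region thus had differences of both signs.

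**Figure D4:**
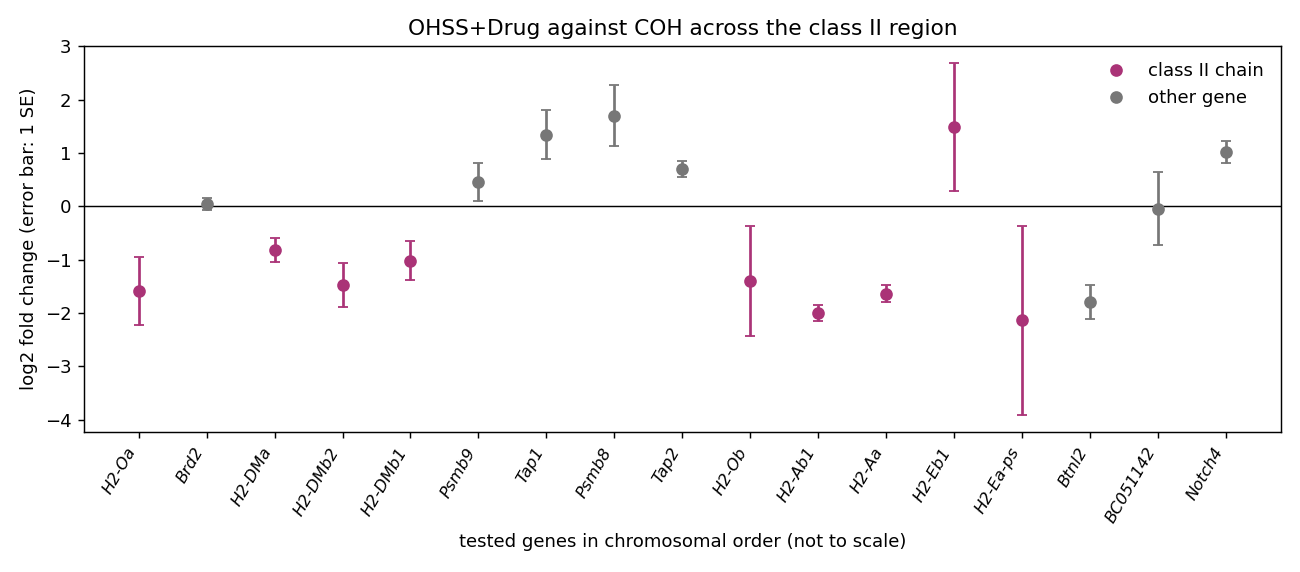
Log2 fold changes (OHSS+Drug against COH, 1 SE) of the tested genes of the class II region of chromosome 17, in chromosomal order and not to scale. Class II chains are purple and other genes grey. H2-Ab1, H2-Aa and the DM chains lie below 0, and Psmb9, Tap1, Psmb8 and Tap2 between them above 0. H2-Ob, also between them, lies below 0.

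The endosomal enzymes that make class II peptides had no calls. Of 9 genes tested none had an adjusted p below 0.05 in edgeR, limma voom or DESeq2, and 1, 0 and 0 had an unadjusted edgeR p under 0.05 in the 3 comparisons. Their median log2 fold changes were 0.10, -0.051 and -0.0077. The protease Ctsb ran from 963.4 to 1312 CPM, Ctsd from 530.4 to 707.3 CPM, with means of 699.6, 641.0 and 618.8 CPM in the 3 groups, and Lgmn, an asparagine-specific protease, from 779.6 to 1304 CPM. Ctsl was at 372.4 and 308.4 CPM in COH, 883.3 and 514.6 in OHSS, and 462.3 and 740.6 in nintedanib ovaries, with a log2 fold change of 1.04 in OHSS against COH (SE 0.340, edgeR adjusted p = 0.542). These enzymes are made by many cell types.

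Co-stimulatory ligands and receptors accompany class II on antigen-presenting cells. Of 6 listed, 5 were tested and none reached an adjusted p below 0.05 with edgeR, limma voom or DESeq2, with 0, 0 and 1 at an unadjusted edgeR p under 0.05. Icosl ran from 21.1 to 31.8 CPM, Cd86 from 2.74 to 4.69 and Cd40 from 0.594 to 1.68 CPM. Cd274, the inhibitory ligand PD-L1, was at 2.67 and 2.45 CPM in COH, 7.33 and 4.81 in OHSS, and 3.40 and 10.7 in nintedanib ovaries. Its means were higher in both OHSS groups, at log2 fold changes of 1.24 and 1.47 against COH, with edgeR adjusted p = 0.608 and 0.513.

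Markers of the cells that could carry class II are given beside these results. The 12 macrophage and monocyte markers summed to 644.5 and 721.2 CPM in COH, 770.8 and 508.3 in OHSS, and 484.3 and 447.7 in nintedanib ovaries. The nintedanib libraries were lowest and OHSS straddled COH, but this order rested on Lyz2. The other 11 markers, summed after these values were seen, gave 405.1 and 459.3 CPM in COH, 604.3 and 371.1 in OHSS, and 402.2 and 397.0 in nintedanib ovaries, with the second OHSS library lowest. The 8 dendritic cell markers summed to 58.3 and 60.7, 54.8 and 52.7, and 48.6 and 57.3 CPM, both OHSS libraries being below both COH libraries. Most of this sum was Zbtb46, which endothelial cells also express, at 46.0 and 47.3, 43.8 and 44.0, and 37.3 and 46.3 CPM. The 8 B cell markers summed to between 3.76 and 6.59 CPM, with overlapping groups. The 4 general leukocyte genes summed to 73.3 and 73.4 CPM in COH, 78.1 and 61.5 in OHSS, and 64.9 and 54.0 in nintedanib ovaries, so both nintedanib libraries were below both COH libraries. The 8 T cell markers summed to 12.5 and 12.8 CPM in COH, 11.8 and 8.34 in OHSS, and 10.7 and 9.43 in nintedanib ovaries. On this sum both OHSS and both nintedanib libraries were below both COH libraries. Of all single genes tested, 22.9% lay below COH without overlap in OHSS and 22.7% in nintedanib ovaries. No marker of these lists was at 0 in all 6 libraries. Blk, a B cell kinase, was at 0 in 3 libraries, and Pax5, Cd3d and Cd8a were at 0 in the first nintedanib library.

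edgeR called no marker of these 5 lists in any comparison. Over all genes tested, an unadjusted p under 0.05 was reached by 8.82%, 7.42% and 9.70% in the 3 comparisons, and DESeq2 called 1.47%, 0.888% and 2.20%. At an unadjusted p under 0.05 edgeR had 1 lower macrophage marker for OHSS against COH, 1 higher and 2 lower for nintedanib against OHSS, and 2 lower for nintedanib against COH. Of the dendritic markers it had 1 lower, then 1 higher and 1 lower, then again 1 higher and 1 lower. B cell markers had none, T cell markers had 1 lower in the last comparison only, and leukocyte genes had 1 lower against COH in both OHSS groups. limma voom called none, and DESeq2 called 1 lower macrophage marker in each of the last 2 comparisons and 1 higher and 1 lower dendritic marker in the last.

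**Figure D5:**
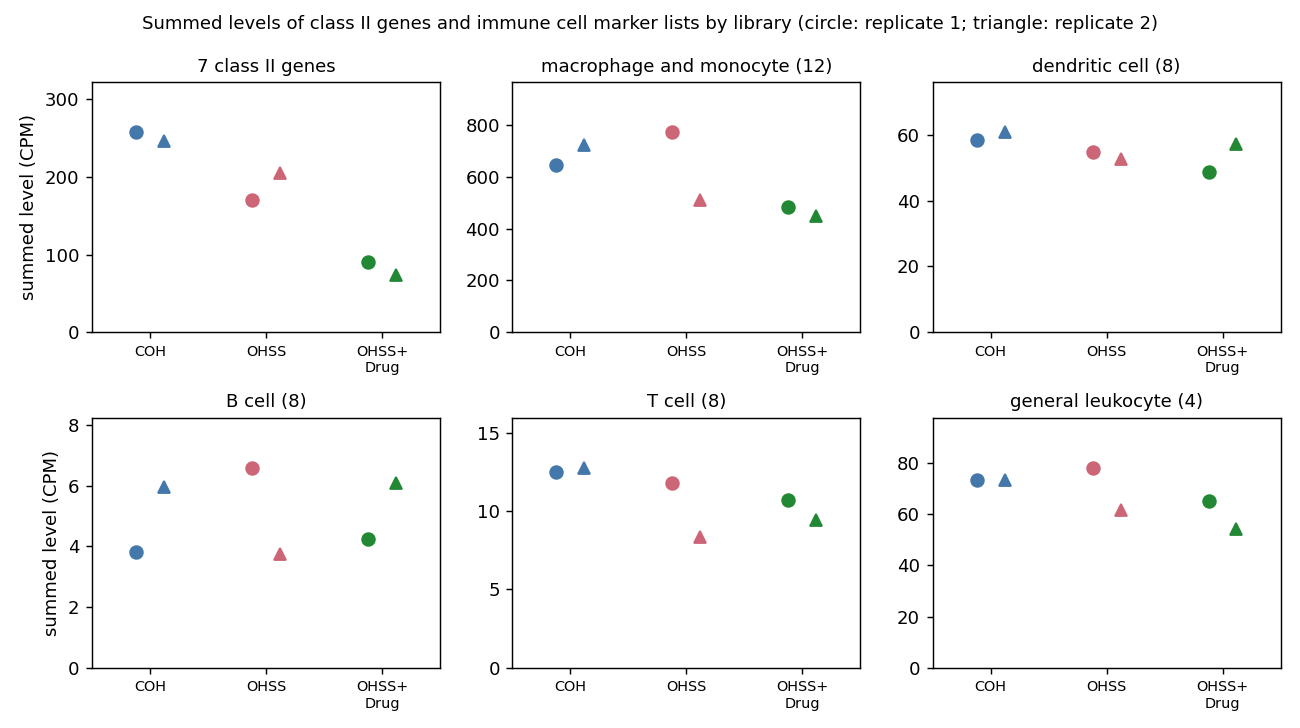
Summed CPM of the 7 class II genes and of 5 immune marker lists in the 6 libraries, on linear axes from 0. Circles are first and triangles second replicates. The class II sum separates all 3 groups, and the macrophage sum is lowest in the nintedanib libraries only with Lyz2 in it: without Lyz2 the second OHSS library, at 371.1 CPM, is lowest.

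Among the macrophage markers, Lyz2, the lysozyme of macrophages and monocytes, stood closest to H2-Ab1. It was at 239.4 and 261.9 CPM in COH, 166.6 and 137.3 in OHSS, and 82.1 and 50.7 in nintedanib ovaries, with no overlap. Its log2 fold changes were -0.72 (SE 0.246), -1.19 (SE 0.249) and -1.92 (SE 0.253), with edgeR adjusted p = 0.542, 0.625 and 0.267. DESeq2 called the last 2, at 0.0047 and 6.7e-09.

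Counts of H2-Ab1 per count of Lyz2 were 0.197 and 0.200 for COH, 0.160 and 0.211 for OHSS, and 0.168 and 0.219 in nintedanib ovaries, so the groups overlapped on that ratio. Counts of Cd74 per count of Lyz2 overlapped too, from 0.524 to 0.903. Other macrophage genes gave another picture. C1qa, C1qb and C1qc, the subunits of complement C1q, had their highest level in the first OHSS library and overlapped between all groups.

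Adgre1, which encodes F4/80 and was named after its values were seen, ran only from 14.3 to 17.05 CPM. Counts of H2-Ab1 per count of Adgre1 were 3.05 and 3.07 for COH, 1.80 and 1.97 for OHSS, and 0.957 and 0.776 in nintedanib ovaries, with no overlap. H2-Ab1 was chosen for this order, so its ratio to any gene that varies little keeps the order. The ratios are therefore descriptions, and levels per cell were not measured. Per count of Csf1r, the receptor that macrophages depend on, named likewise, H2-Ab1 was at 0.904 and 1.04, 0.449 and 0.533, and 0.304 and 0.306. Of 8 marker genes that H2-Ab1 was divided by, 5 kept the order of the groups without overlap: Adgre1, Csf1r, C1qa, Laptm5 and Coro1a. The order was lost against Lyz2, Itgax and Ptprc. Per count of Itgax, H2-Ab1 was at 14.9 and 15.7, 7.55 and 10.6, and 9.71 and 9.92, and per count of Ptprc at 4.94 and 5.66, 1.82 and 3.14, and 1.42 and 2.73. In both, OHSS and nintedanib libraries overlapped below COH. Cd74, divided by the same genes, kept the order without overlap only against Csf1r, at 2.97 and 2.72, 1.83 and 2.29, and 1.20 and 0.865. Against Adgre1, C1qa, Laptm5 and Coro1a its COH and OHSS libraries overlapped, and both nintedanib libraries lay below them. Against Laptm5, for example, Cd74 was at 3.43 and 3.11, 2.27 and 3.29, and 1.31 and 0.926.

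The dendritic cell markers had differences of both signs. Of 8 tested, 7 had lower means in OHSS than in COH. In nintedanib ovaries 4 had lower means than in OHSS and 6 than in COH. Over all genes tested, means were lower for 50.4%, 48.5% and 50.1% in these comparisons. Lower without overlap were 4, 2 and 4 markers, against 22.9%, 16.9% and 22.7% of all genes. Zbtb46 ran from 37.3 to 47.3 CPM, although endothelial cells also express it. Itgax, the integrin CD11c, was at 3.17 and 3.33 CPM in COH, 3.53 and 2.74 in OHSS, and 1.42 and 1.12 in nintedanib ovaries. Clec9a, the receptor of cross-presenting dendritic cells, was at 3.57 and 3.22, 3.41 and 3.53, and 6.59 and 6.20 CPM, higher in both nintedanib libraries. For nintedanib against COH, the edgeR adjusted p was 0.451 for Itgax and 0.459 for Clec9a, and the DESeq2 adjusted p 0.034 and 0.049. Cd209a, a marker of monocyte-related dendritic cells, was at 1.29 and 3.68 CPM in COH, 1.22 and 0.462 in OHSS, and 0.416 and 0.965 in nintedanib ovaries. Xcr1, named outside the rule, was at 1.29 and 0.910, 0.996 and 0.857, and 0.589 and 0.560 CPM, lower in both nintedanib libraries.

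Among B cell genes, Cd22 ran from 1.22 to 4.14 CPM, and Cd79a and Cd79b lay at or below 1.65 CPM. Among T cell genes, Lck ran from 3.36 to 6.62 CPM and Cd4, which macrophages and other cells can also express, from 2.36 to 4.80 CPM. Of 6 T cell markers tested, all 6 had lower means in OHSS than in COH. In nintedanib ovaries 4 had lower means than in OHSS and 5 than in COH. Over all genes tested, means were lower for 50.4%, 48.5% and 50.1%. Lower without overlap were 2, 2 and 3 T cell markers, against 22.9%, 16.9% and 22.7% of all genes. Ptprc, the leukocyte antigen CD45, was at 9.55 and 9.24 CPM in COH, 14.7 and 9.20 in OHSS, and 9.71 and 4.08 in nintedanib ovaries. How far any of these cell types contributes to the class II levels was not tested. Endothelial, epithelial and ovarian cell markers had no edgeR call either, and their counts stand beside the same all-gene shares of 8.82%, 7.42% and 9.70%. At an unadjusted p under 0.05, 2 of 5 endothelial markers were lower in OHSS than in COH, and 3 were higher in nintedanib than in OHSS and 1 than in COH ovaries. Of 8 epithelial markers 1 was higher against COH in each OHSS group. Of 10 ovarian cell markers 1 was higher and 1 lower in the first comparison, 1 higher in the second and 4 higher in the third. DESeq2 called 1 lower endothelial marker for OHSS against COH, 1 higher ovarian marker there and 2 for nintedanib against COH.

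Of the 100 other listed genes that were tested, 5 stepped down over the 3 groups without overlap at either step: Lyz2, Adgre1, Ccr2, Cd3e and Btnl2. Over all genes tested the share was 1.65%. Adgre1 had a narrow range, Ccr2 is a monocyte chemokine receptor, and Cd3e, a chain of the T cell receptor complex, lay under 1 CPM.

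The genes most like H2-Ab1 were ranked by Pearson r of log2 CPM over the 6 libraries, among 11499 genes with a mean of at least 5 CPM. The 6 libraries fall into 3 groups that H2-Ab1 separates, so r mostly reflects the order of the groups. The highest were Wdr34 (r = 0.994), Cpxm2 (0.992), Pold4 (0.992), Cilp (0.986), Adat2 (0.984), Il34 (0.983), Sco2 (0.982) and Lyz2 (0.980). Only Lyz2 is among the immune markers listed, and Il34 encodes a ligand of Csf1r. Cpxm2, a carboxypeptidase-like secreted protein, was at 28.6 and 30.8 CPM in COH, 17.3 and 18.0 in OHSS, and 7.49 and 5.01 in nintedanib ovaries. Wdr34 had the highest r with a far smaller range, 17.3 to 23.2 CPM. Of the class II genes themselves, r with H2-Ab1 was 0.973 for H2-Aa, 0.963 for H2-DMa, 0.946 for Cd74, 0.912 for Ciita, 0.822 for H2-DMb1 and -0.290 for H2-Eb1.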

How the data were processed

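Polyadenylated RNA of 6 whole-ovary libraries (3 groups of 2) was counted per gene. The deposited table holds raw counts per gene, made by the authors with Trimmomatic 0.36, HISAT2 2.1.0 and StringTie 1.3.3b, with mm8 as the genome build, per the submitters' processing notes. Counts are 72.12% to 74.01% of reads, and 144.2% to 148% of read pairs, so each pair seems to be counted as 2, and neighbouring counts are not independent. The read numbers come from the summary the authors deposited, whose values are other quality figures. Genes were filtered with filterByExpr, scaled with TMM and fitted with edgeR 4.0.16 (R 4.3.3) as 1 quasi-likelihood model of 3 groups with 3 residual degrees of freedom. P-values are two-sided, Benjamini-Hochberg adjusted over 19027 genes and called below 0.05. The code of the fit was run on simulated counts with changes planted in genes of higher counts. The simulated spread was a single fixed value for all genes, not taken from these data. That run therefore does not tell how many changed genes the fit can find here. DESeq2 1.42.0 and limma voom (limma 3.58.1), other scaling and filters, a replicate block, fits of only 2 groups and leaving out each library were alternatives. A permutation of 2 against 2 libraries cannot go below p = 0.333. With no label naming separate animals, p-values measure only the spread between these libraries.

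The genes and lists were chosen with earlier results of these data known. All 7 class II genes are named. Of each other list, every called gene and up to 4 genes with the highest mean CPM are named by rule, with 8 genes most like H2-Ab1; 2 genes the rule would name are not reported here. H2-Eb2, Ifng, Btnl2, Notch4, Psmb9, Adgre1, Csf1r, Irf1, Ptprc, Blk, Pax5, Cd83, Cd3d, Cd3e, Cd8a, Ccr2 and Xcr1 are named beyond it or by the pattern that singled them out. The lists cover other class II chains, promoter factors, endosomal enzymes, co-stimulation, interferon gamma signalling, neighbouring genes, and markers of B cells, dendritic cells, macrophages, T cells, leukocytes, endothelium, epithelium and ovary. Exon lengths (all 114 listed genes with a row matched) and transcript similarity (BLAST 2.17.0) came from GENCODE M21 on GRCm38. The notes name mm8 while the listed gene identifiers match GENCODE M21, so the build behind the counts is uncertain and no coordinates were transferred.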

Additional observations from a re-analysis of the deposited data

How the results depend on the processing

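The 7 class II genes kept their direction in all 168 values from other scalings, filters, tools and fits, each within the spread between replicates. Leaving out a library kept 108 of 126 values within that spread and changed the sign of 5, of H2-Eb1 and H2-DMb1. Their median ranged from -0.69 to -0.22 for OHSS against COH, from -1.15 to -0.34 for nintedanib against OHSS and from -1.27 to -0.96 for nintedanib against COH. Numbers of genes called, of all tested, depended strongly on the tool. In the order of comparisons used above, edgeR called 2, 1 and 5, DESeq2 274, 181 and 370, limma voom 0, 1 and 2, edgeR with no filter 4, 2 and 6, and edgeR on only the 2 groups compared 0, 0 and 2. Where these were 0, the unadjusted p was under 0.05 for 1585 genes (limma voom) and for 1864 and 1023 genes (2 groups). Replicate numbers did not pair the libraries: deviations of same-numbered libraries correlated at -0.000723, 0.0484 and -0.00226, and the replicate block gave 1, 0 and 2 calls (1242 genes at an unadjusted p under 0.05 in the second) and left the directions of the 7 genes as they were. Leaving out 1 library gave 0 to 2, 0 to 30 and 0 to 53 calls. The 30 and 53 came without the first nintedanib library, and without either COH library all 3 counts were 0, with 839 to 1260 genes at an unadjusted p under 0.05. Without the second OHSS library they were 0, 1 and 2, without the first 2, 2 and 4, and without the second nintedanib library 0, 2 and 3. A lone library is then assumed to vary like the other groups. Calls among the other pathway genes stayed at 0 except under DESeq2, with 1, 0 and 5. The cause of these differences was not tested. Depth limits Ciita, at 28 to 77 counts a library, and H2-Oa, H2-Ob and H2-Ea-ps.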
